A study of Homo sapiens with 18 samples.

Results

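The genes described here were the ligands, receptors and SMAD proteins of the TGF-beta pathway and 1 of its target genes. They were chosen by symbol, and 12 of the 21111 probes matched 10 genes: TGFB1, TGFB2, TGFB3, TGFBR1, TGFBR2, SMAD2, SMAD3, SMAD4, SMAD7 and TGFBI. TGFB2 and SMAD3 had 2 probes each, and the other 8 genes had 1. BT549, Hs578T and SUM149PT, established cell lines of triple negative breast cancer (TNBC), had been transfected with a pool of siRNAs against ASAP1 (siASAP1) or with siCtrl, which the study's methods give as a mix of siRNAs against kinases. ASAP1 encodes a GTPase-activating protein for ARF GTPases. Cells received 50 nM siRNA with the reagent INTERFERin in 96-well plates and were collected after 72 h, and each of the 6 groups had 3 libraries, named as biological triplicates in the study's methods. The control is thus itself a treatment with transfection reagent and siRNA, and no untreated cells were measured.

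Messenger RNA was read by TempO-Seq, in which pairs of detector oligos are ligated on the transcript and the ligated probes are sequenced. The libraries held 4.63 to 12.5 M reads, with a median of 6.63 M. Values are normalized counts, that is reads divided by the authors' size factor of each library, and Log2 FC is the difference between group means on the scale log2(normalized count + 1), siASAP1 minus siCtrl. That scale understates the change of probes with few reads. Probes capture transcripts with different efficiency, so levels were compared between groups for the same probe and not between genes.

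TGF-beta ligands are secreted in a latent form and, once released, bind the type II receptor TGFBR2, which then recruits and phosphorylates the type I receptor TGFBR1. The active TGFBR1 kinase phosphorylates SMAD2 and SMAD3, which join SMAD4, enter the nucleus and regulate target genes. SMAD7 is an inhibitory SMAD, itself induced by the pathway, that blocks TGFBR1. TGFBI is a secreted matrix protein named for its induction by TGF-beta. In breast cancer cells the pathway is known both for growth arrest and for epithelial-mesenchymal transition (EMT).

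In the GENCODE annotation of GRCh38 all 10 are protein-coding genes. Among the ligands, TGFB1 spans chr19:41301587-41353911, TGFB2 chr1:218346235-218444619 and TGFB3 chr14:75958099-75982991. The receptor genes TGFBR1 and TGFBR2 span chr9:99104038-99154192 and chr3:30606502-30694142. SMAD2 spans chr18:47808957-47931146, SMAD3 chr15:67063763-67195195, SMAD4 chr18:51028394-51085045 and SMAD7 chr18:48919853-48952052. TGFBI spans chr5:136028895-136063818. TGFB1, TGFB3, SMAD2 and SMAD7 lie on the minus strand and the others on the plus strand. The exon that each probe reads is not given in the sources used here.

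TGFBR1 was the member called with siASAP1 and TGFB2 the member with the widest called difference between cell lines, and a stretch upstream of each is shown because SMAD3 and SMAD4 can bind DNA at a short box, CAGAC or its complement GTCTG. Both stretches are RefSeq sequence of GRCh38.p14, plus strand, with the box in capitals. The TGFBR1 stretch is chr9:99104863-99105088 before the RefSeq start at 99105113, lies inside the GENCODE gene span and holds no annotated exon. Its box lies 213 to 209 bases before the start. The TGFB2 stretch is chr1:218345086-218345335, directly before the RefSeq start at 218345336. It has a box at 243 to 239 and another at 53 to 49 bases before the start, and overlaps an exon of the antisense gene TGFB2-AS1 (chr1:218345175-218345388, minus strand).
TGFBR1: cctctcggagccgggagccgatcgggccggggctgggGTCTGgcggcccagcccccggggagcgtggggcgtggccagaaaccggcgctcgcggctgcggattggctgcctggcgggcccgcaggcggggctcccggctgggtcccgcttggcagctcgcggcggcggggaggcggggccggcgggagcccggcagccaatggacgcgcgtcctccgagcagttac
TGFB2: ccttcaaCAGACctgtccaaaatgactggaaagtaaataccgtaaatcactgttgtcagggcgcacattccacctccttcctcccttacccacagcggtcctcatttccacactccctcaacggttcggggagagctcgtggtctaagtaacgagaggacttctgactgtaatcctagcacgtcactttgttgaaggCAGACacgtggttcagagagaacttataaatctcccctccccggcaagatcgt
Over the 250 bases before each RefSeq start, the box was present on either strand in 10 of the 26 windows of the member genes and in 38.0% of all 35116 windows. It was present in 4 of 8 windows of TGFBR1, 2 of 5 of SMAD3, 2 of 3 of SMAD7, 1 of 2 of TGFB3 and 1 of 1 of TGFB2, and in 0 windows of the other 5 genes. A box is a match of letters, and binding was not measured in these libraries.

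Silencing was checked first. The ASAP1 probe averaged 1006 ± 88.1 (SD, 3 libraries) normalized counts with siCtrl and 627 ± 226 with siASAP1 in BT549, 1918 ± 685 and 956 ± 265 in Hs578T, and 863 ± 595 and 311 ± 144 in SUM149PT. All 9 siASAP1 libraries lay below the siCtrl mean of their own cell line, and the groups did not overlap in BT549 and Hs578T. In SUM149PT they overlapped, because the siCtrl library 2 had an ASAP1 normalized count of 189 against 1087 and 1314 in the others. That library also correlated with the mean of its 2 replicates at r = 0.773 across probes, against 0.846 to 0.961 for the other libraries, so values without it are given beside the results that it moves. Over the 18 libraries the Log2 FC of ASAP1 was -0.96 (SE 0.31, adjusted p = 0.127, limma with Benjamini-Hochberg adjustment), and without that library -1.20 (SE 0.25, adjusted p = 0.0187). That library was singled out partly by its low ASAP1 count, so the latter value is no separate check of the silencing. With any other single library left out, ASAP1 did not pass (adjusted p 0.133 to 0.210, limma). The paper also reported reduced ASAP1 mRNA by RT-qPCR in these cell lines, a measurement that is not part of these libraries.

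Cell type markers differed between the lines. Normalized counts of the epithelial adhesion gene EPCAM averaged 29532 in SUM149PT with siCtrl, 19.0 in Hs578T and 1.72 in BT549, and the keratin KRT17 was at 1365 in SUM149PT and below 1 in the others. The main probe of the mesenchymal filament gene VIM averaged 151322 in Hs578T, 32100 in BT549 and 2622 in SUM149PT. Of 8 mesenchymal probes tested with siCtrl, 7 were called lower and 1 higher in SUM149PT than in BT549 (8.8% and 9.4% of all probes). Against Hs578T 8 were lower and 0 higher (10.6% and 9.68% of all probes). PGR, which TNBC lacks by definition, was at 0 in all but 1 library, while a probe of ESR1 reached 190.5 in a SUM149PT siASAP1 library. PTPRC, CD3E, CD14 and CDH5 of blood and endothelial cells stayed below 5 normalized counts, while 1 of 2 PECAM1 probes reached 103 in SUM149PT.

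The level of the pathway's genes is described first in the siCtrl libraries. TGFB2 was the ligand with a clear signal in all lines, on probe 25683. TGFBR1 and TGFBR2 were both present in every library, and SMAD3 was measured well while SMAD2 and SMAD4 gave few reads. Of the 12 probes, 10 had a mean normalized count of at least 10 and were tested. The probe SMAD4_6563 (mean 2.96, 0 reads in 11 of 18 libraries) and the TGFB2 probe 7058 (mean 3.46, 0 reads in 13 libraries) did not reach that minimum. Few reads on a probe say nothing sure about the transcript level or the protein, and SMAD4 transcripts below the reach of this probe were not detectable at this depth. In whole-culture RNA, fewer cells of a type and less RNA per cell cannot be told apart.

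**Figure D1:**
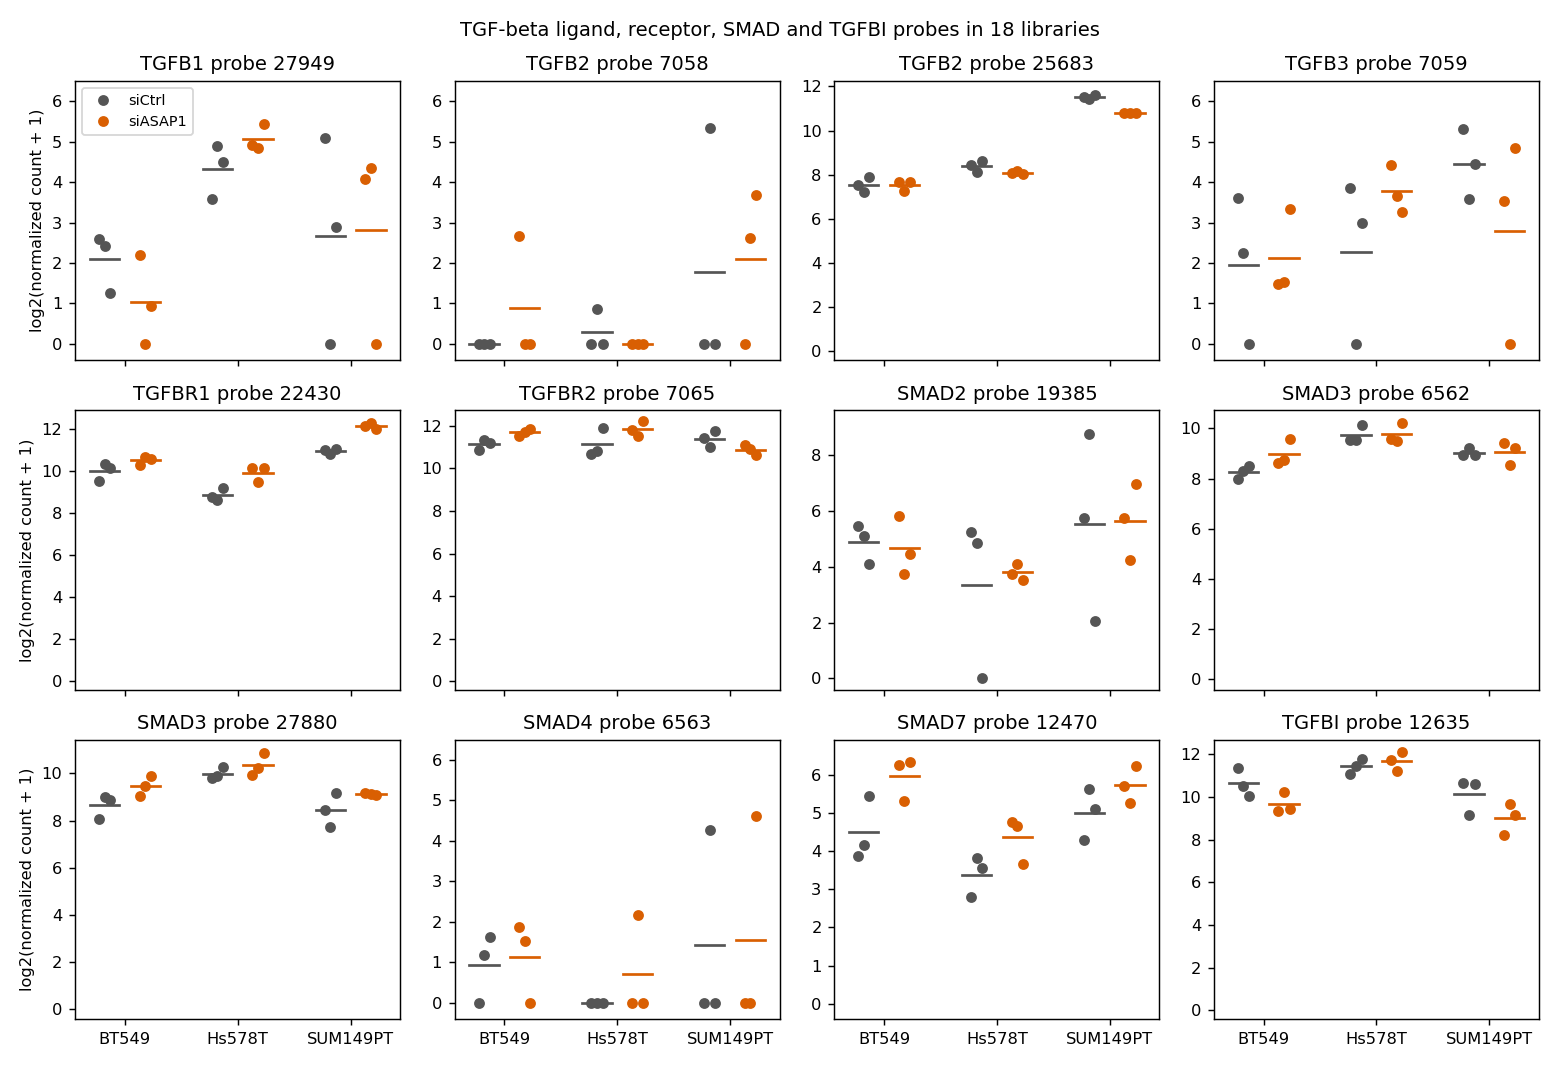
Each panel shows 1 probe, with log2(normalized count + 1) on the vertical axis and the 3 cell lines on the horizontal axis. Points are single libraries (grey siCtrl, orange siASAP1) and lines are means of 3. TGFBR1 was higher with siASAP1 in all lines on average, TGFB2 probe 25683 was far higher in SUM149PT than in the other lines, and SMAD4 and TGFB2 probe 7058 were at 0 in 11 and 13 of the 18 libraries.

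TGFB2 probe 25683 separated SUM149PT from the other lines. With siCtrl it read 182, 146 and 239 in BT549, 343, 274 and 393 in Hs578T, and 2969, 2789 and 3149 in SUM149PT. No siCtrl library of SUM149PT came near the range of the others. The level was 3.99 higher on the log2 scale in SUM149PT than in BT549 (SE 0.31, adjusted p = 1.64e-05) and 3.15 higher than in Hs578T (SE 0.31, adjusted p = 6.21e-05), both by limma over the 9 siCtrl libraries with Benjamini-Hochberg adjustment over 10255 probes. Hs578T and BT549 differed by 0.84 (SE 0.31, adjusted p = 0.112, limma), which did not pass. Without the SUM149PT siCtrl library 2, SUM149PT lay 4.04 above BT549 and 3.20 above Hs578T. The probe of TGFB1, the ligand most often studied in cancer, gave few reads throughout, which does not rank the ligands by transcript level. Its siCtrl values were 4.99, 4.40 and 1.40 in BT549, 10.97, 28.6 and 21.7 in Hs578T and 32.9, 0 and 6.39 in SUM149PT. TGFB3 read 11.2, 3.77 and 0 in BT549, 13.5, 0 and 6.90 in Hs578T and 38.6, 10.9 and 20.8 in SUM149PT. For neither of these ligands did any pair of lines pass the test.

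TGFBR1 ranked SUM149PT, BT549 and Hs578T from high to low. The 3 siCtrl libraries gave 2019, 1808 and 2155 in SUM149PT, 727, 1288 and 1129 in BT549 and 437, 399.8 and 586 in Hs578T, so that the lines did not overlap. SUM149PT lay 2.09 above Hs578T on the log2 scale (SE 0.32, adjusted p = 0.00106, limma) and 0.96 above BT549 (SE 0.32, adjusted p = 0.066), and the latter difference did not pass. Without the SUM149PT siCtrl library 2 it was 1.03 with an adjusted p of 0.0306. Hs578T lay below BT549 by a log2 difference of -1.12 (SE 0.32, adjusted p = 0.0445), a call lost on leaving out BT549 library 2 or 3, Hs578T library 1 or 2, or SUM149PT library 1 or 3 of the siCtrl group, with differences of -1.12 to -0.95 and adjusted p up to 0.179. In the siASAP1 libraries that difference was -0.59 and did not pass (adjusted p = 0.159). TGFBR2, by contrast, averaged 2284 ± 346 in BT549, 2435 ± 1211 in Hs578T and 2771 ± 682 for SUM149PT with siCtrl. The intervals of its cell line differences are drawn in the plot of cell line differences, and none passed.

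SMAD3 was read by 2 probes whose log2 values correlated at r = 0.735 over the 18 libraries, a description in which the points share libraries and depth. Probe 6562 gave siCtrl values of 252, 313 and 361 in BT549, 741, 747 and 1115 in Hs578T and 493, 589 and 491 in SUM149PT. Probe 27880 gave 267, 512 and 471 in BT549, 892, 961 and 1232 in Hs578T and 345, 210.5 and 582 in SUM149PT. On both probes all Hs578T libraries lay above those of the other lines. Hs578T exceeded BT549 by 1.48 on the log2 scale with probe 6562 (SE 0.31, adjusted p = 0.0106, limma) and by 1.34 with probe 27880 (SE 0.43, adjusted p = 0.0704), and only the first passed. In the siASAP1 libraries the same difference of probe 6562 was 0.77 and did not pass (adjusted p = 0.177). SUM149PT lay below Hs578T with probe 27880 (log2 difference -1.55, SE 0.43, adjusted p = 0.0303), and by -0.70 with probe 6562, which did not pass (adjusted p = 0.149). The call with probe 27880 was lost on leaving out any of the 3 Hs578T siCtrl libraries, BT549 library 3 or SUM149PT library 1, with adjusted p up to 0.0834. Without SUM149PT library 2 it was -1.18 (adjusted p = 0.037).

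SMAD2, SMAD7 and TGFBI showed no cell line difference that passed the test. SMAD2 read 43.7, 33.3 and 16.1 in BT549, 37.1, 27.7 and 0 in Hs578T and 52.9, 437 and 3.20 in SUM149PT, where the value of 437 came from the siCtrl library 2 named above. SMAD7 averaged 24.5 ± 15.9 in BT549, 9.93 ± 3.66 in Hs578T and 33.5 ± 14.8 in SUM149PT. TGFBI averaged 1717 ± 812, 2848 ± 697 and 1251 ± 598 in the same order. Across the 10 probes tested, 1 was called higher and 1 lower in Hs578T than in BT549, where the background over all probes was 7.58% higher and 6.28% lower. In SUM149PT against BT549, 1 was higher and 0 lower (backgrounds 9.4% and 8.8%), and against Hs578T 2 were higher and 1 lower (backgrounds 9.68% and 10.6%). The 3 pairs of lines share libraries, and the siASAP1 comparisons use the same siCtrl libraries again.

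**Figure D2:**
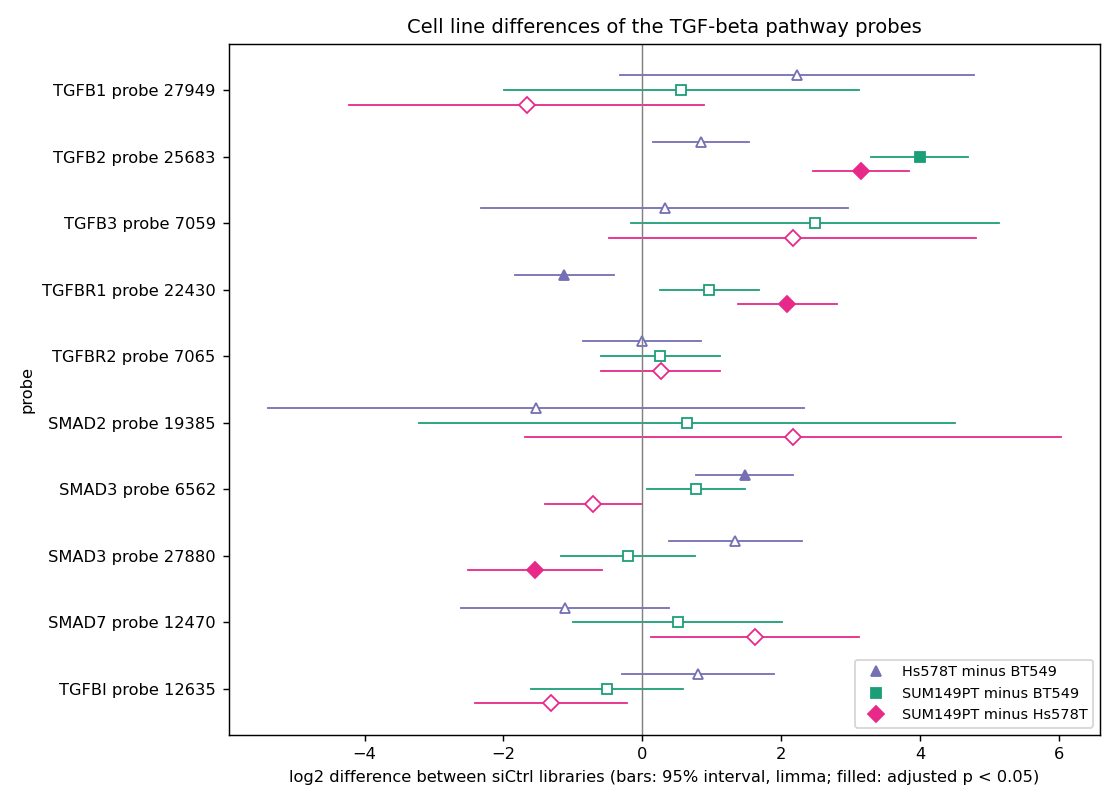
Differences between cell lines in the siCtrl libraries, with the log2 difference on the horizontal axis and the 10 tested probes on the vertical axis. Symbols stand for the 3 pairs of lines, bars are 95% intervals from limma and filled symbols have an adjusted p under 0.05. TGFB2 lies furthest from 0, at 3.99 and 3.15 for SUM149PT against BT549 and Hs578T, and the SMAD2 intervals are the widest.

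Turning to silencing, TGFBR1 was higher with siASAP1 than with siCtrl over the 3 cell lines and was the only member that passed the adjusted test. Its normalized counts in BT549 were 727, 1288 and 1129 with siCtrl and 1258, 1650.1 and 1532 with siASAP1. In Hs578T they were 437, 399.8 and 586 against 1127, 719 and 1139.9, and in SUM149PT 2019, 1808 and 2155 against 4559, 5059 and 4078. Every siASAP1 library lay above the siCtrl mean of its line, the groups were apart in Hs578T and SUM149PT, and in BT549 1 siASAP1 library fell inside the siCtrl range. How many of all probes had groups apart, or every siASAP1 library on the same side of the siCtrl mean, was not counted. Such separation is a description, here and in the other passages, and is not used as support. The Log2 FC was 0.93 over the 18 libraries (SE 0.17, 95% interval 0.57 to 1.28, adjusted p = 0.00766, limma with Benjamini-Hochberg adjustment over 10475 probes). It stayed called in each of the 18 fits that left out 1 library (0.88 to 1.00, adjusted p 0.00642 to 0.0206). Without the SUM149PT siCtrl library 2 it was 0.89 (adjusted p = 0.0124). TGFBR1 and TGFBR2 encode kinases, and siCtrl is a mix of siRNAs against kinases. The study's methods describe that mix as without significant effect on single kinase genes. With no untreated cells, a rise of TGFBR1 with siASAP1 and a lower level with siCtrl cannot be told apart.

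By cell line, the Log2 FC of TGFBR1 was 0.53 in BT549 (SE 0.36, interval -0.26 to 1.32), 1.06 in Hs578T (SE 0.30, interval 0.39 to 1.72) and 1.19 in SUM149PT (SE 0.32, interval 0.45 to 1.94). The adjusted p-values of limma within a line were 0.688, 0.915 and 0.346. With the limits of the study's methods, which ask for an absolute Log2 FC over 1 at an unadjusted p under 0.05, TGFBR1 was called in Hs578T and SUM149PT. In Hs578T the call was lost without siCtrl library 2, siASAP1 library 1 or siASAP1 library 3, where the Log2 FC came to 0.94 to 0.95. The difference of the TGFBR1 response between lines did not pass the interaction test. No member did, and the lowest adjusted p was 0.743 (TGFBR2), while 1 of 10475 probes passed (0.00955%). At an unadjusted p under 0.05 the interaction gave 1 member probe in limma and 1 in voom, where 0 passed adjustment. Over all 10475 probes limma gave 652 at that threshold.

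By those limits 1 of 8 member probes tested was called in BT549 (SMAD7), against a background of 6.97% of 9666 probes. In Hs578T and in SUM149PT it was 1 of 10 (TGFBR1), against 2.78% of 9500 and 9.56% of 10078 probes. With adjusted p-values 0 members and 0% of all probes were called in each line by limma. At an unadjusted p under 0.05 limma gave 2 member probes for BT549, 1 for Hs578T and 2 for SUM149PT. Over all probes limma gave 754 of 9666, 502 of 9500 and 1025 of 10078 at that threshold. For the members, voom on the recovered reads gave 0 after adjustment and 1 each before it, and its counts over all probes are not printed here. Over the 18 libraries 1 of 10 member probes was higher and 0 lower, with backgrounds of 1.74% of all probes in either direction, 0.678% higher and 1.06% lower. The median Log2 FC of the 10 member probes was 0.19, and that of all probes 0.02.

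**Figure D3:**
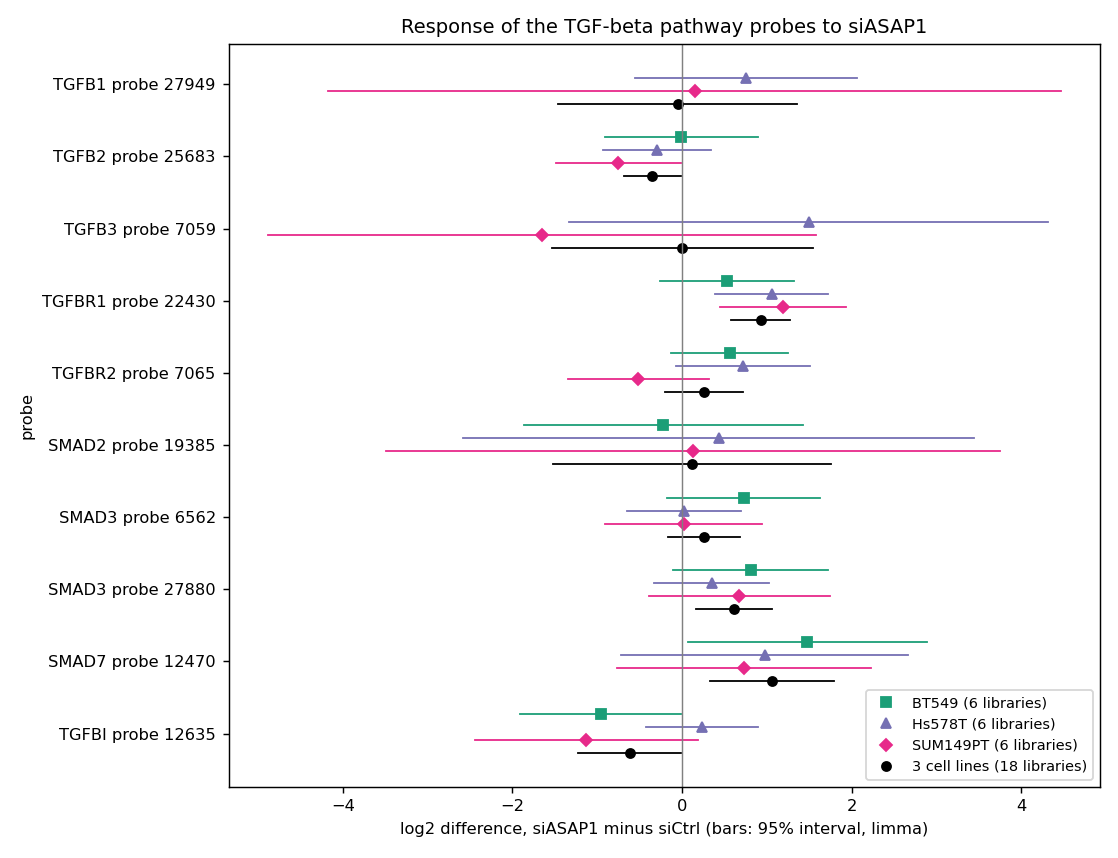
Response to siASAP1, with the Log2 FC (siASAP1 minus siCtrl) on the horizontal axis and the tested probes on the vertical axis. Symbols are the 3 cell lines and the fit over the 18 libraries, and bars are 95% intervals from limma. TGFBR1 lies to the right of 0 in every line, TGFBR2 lies right of 0 in BT549 and Hs578T and left of it in SUM149PT, and TGFB1, TGFB3 and SMAD2 have wide intervals.

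Among the ligands, the TGFB2 groups were apart in SUM149PT, the line where its level was highest. Its values there were 2969, 2789 and 3149 with siCtrl and 1771, 1747 and 1771 with siASAP1, with no overlap and little spread (mean 1763 ± 13.9). The Log2 FC was -0.75 (SE 0.32, interval -1.48 to -0.02, adjusted p = 0.48 by limma), which did not reach the limit of 1. Without siCtrl library 2 it was -0.79 (SE 0.29, adjusted p = 0.148). These SEs are drawn toward the trend over all probes and are not the spread of these libraries alone. In BT549 the siASAP1 values of 205, 153 and 199.8 lay inside the siCtrl range (Log2 FC -0.01). In Hs578T they were 267, 285 and 260.2 against 343, 274 and 393 (Log2 FC -0.30). Over the 18 libraries TGFB2 gave -0.35 (SE 0.16, interval -0.69 to -0.01, adjusted p = 0.293, limma), with 7 of 9 siASAP1 libraries below the siCtrl mean of their line.

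TGFB1 and TGFB3 had too few reads for a narrow interval. TGFB1 with siASAP1 read 3.56, 0 and 0.913 in BT549, 29.5, 27.8 and 42.7 in Hs578T and 15.9, 19.2 and 0 in SUM149PT, and the common Log2 FC was -0.05 (SE 0.67). TGFB3 read 1.78, 1.89 and 9.13 in BT549, 20.4, 11.6 and 8.53 in Hs578T and 10.6, 0 and 27.6 in SUM149PT, with a common Log2 FC of 0.00 (SE 0.74). In BT549 both fell below the minimum and were not tested. Without SUM149PT siCtrl library 2, which had 0 reads of TGFB1, the TGFB1 Log2 FC in SUM149PT went from 0.15 (SE 1.87) to -1.18 (SE 1.67). Standard errors of this size leave room for change in either direction.

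The type II receptor TGFBR2 did not follow TGFBR1 in every line. In BT549 it read 1899, 2570.0 and 2382 with siCtrl and 2959, 3380.4 and 3744 with siASAP1, without overlap. In Hs578T the values were 1663, 1812 and 3830.5 against 3646, 2911 and 4876, and in SUM149PT 2807, 2072 and 3435 against 2196, 1955 and 1599. The siASAP1 libraries thus lay above the siCtrl mean in all 6 cases of BT549 and Hs578T and below it in all 3 of SUM149PT. The Log2 FC was 0.56 (SE 0.31) in BT549, 0.72 (SE 0.35) in Hs578T and -0.51 (SE 0.36) in SUM149PT, or -0.71 (SE 0.32) there without siCtrl library 2. SUM149PT minus Hs578T gave -1.23 (SE 0.46, interval -2.20 to -0.27, adjusted p = 0.7) and SUM149PT minus BT549 -1.08 (SE 0.46, adjusted p = 0.517) in the interaction fit of limma, so that neither passed. Without Hs578T siCtrl library 3, the highest of its group, the Log2 FC in Hs578T was 1.10 and met the limits of the study.

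Of the receptor-regulated SMADs, SMAD3 was higher with siASAP1 in BT549 on both probes. Probe 27880 read 267, 512 and 471 with siCtrl and 525, 701 and 951 with siASAP1, and probe 6562 read 252, 313 and 361 against 392, 429.5 and 770.2. Neither pair of groups overlapped, and the Log2 FC of 0.81 (SE 0.41, adjusted p = 0.647) and 0.73 (SE 0.41, adjusted p = 0.661) did not pass in limma. The probes parted in SUM149PT. There probe 27880 gave 575, 562 and 536 against 345, 210.5 and 582 (Log2 FC 0.68, SE 0.46) and probe 6562 gave 677, 369 and 598 against 493, 589 and 491 (Log2 FC 0.02). Without SUM149PT siCtrl library 2 the Log2 FC of probe 27880 was 0.32. Over the 18 libraries the probes gave 0.61 (SE 0.21, interval 0.16 to 1.06, adjusted p = 0.151) and 0.26 (SE 0.20, adjusted p = 0.578) by limma.

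SMAD2 and the common partner SMAD4 could not be judged from these reads. SMAD2 with siASAP1 read 56.0, 12.3 and 21.0 in BT549, 12.5, 16.2 and 10.7 in Hs578T and 52.9, 17.9 and 126 in SUM149PT, and its common Log2 FC was 0.11 with an SE of 0.78. The library with 437 normalized counts moved its SUM149PT value from 0.13 to 1.75 when left out, with an SE of 1.23 in the latter case. The highest SMAD4 values were 23.7 in a SUM149PT siASAP1 library and 18.2 in the SUM149PT siCtrl library 2, and all others were below 5.

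The inhibitory SMAD7 was higher with siASAP1 in 9 of 9 libraries than the siCtrl mean of its line. In BT549 it read 13.7, 17.0 and 42.8 with siCtrl and 76.4, 38.7 and 80.3 with siASAP1. The Hs578T values were 5.91, 13.1 and 10.8 against 26.1, 24.3 and 11.7, and the SUM149PT values 18.6, 48.3 and 33.6 against 51.6, 37.2 and 74.9. Groups overlapped by 1 library in each of BT549 and Hs578T and also overlapped in SUM149PT. The Log2 FC was 1.48 in BT549 (SE 0.64, interval 0.07 to 2.88, adjusted p = 0.633), which met the limits of the study, 0.97 in Hs578T (SE 0.76) and 0.73 in SUM149PT (SE 0.65), where it was 1.04 (SE 0.69) without siCtrl library 2. The BT549 call was lost without siCtrl library 1 or 2 or siASAP1 library 1 or 3, at Log2 FC of 1.17 to 1.33. Over the 18 libraries SMAD7 gave 1.06 (SE 0.35, interval 0.33 to 1.79, adjusted p = 0.128), and 1.17 (adjusted p = 0.104) without SUM149PT siCtrl library 2, so it did not pass in limma.

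TGFBI averaged lower with siASAP1 in BT549 and SUM149PT and not in Hs578T, and no line passed the adjusted test. It read 2622, 1478 and 1052 against 660.4, 1206 and 694 in BT549, 2173, 2804 and 3565 against 3444, 2364 and 4366 in Hs578T, and 1633, 562 and 1557 against 299, 808 and 564 in SUM149PT. The groups overlapped in every line. Its Log2 FC was -0.96 in BT549 (SE 0.43), 0.24 in Hs578T (SE 0.30) and -1.13 in SUM149PT (SE 0.57), with adjusted p-values of 0.638, 0.951 and 0.553 in limma. Without SUM149PT siCtrl library 2, whose value of 562 was the lowest of its group, it was -1.63 (SE 0.45, adjusted p = 0.0857) and met the limits of the study, as 23.4% of all probes did in that fit. In BT549 it met them without siCtrl library 3 (-1.26) or siASAP1 library 2 (-1.24). The common Log2 FC was -0.62 (SE 0.29, interval -1.23 to -0.01, adjusted p = 0.308), with 7 of 9 siASAP1 libraries below the siCtrl mean of their line.

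Around these genes, the regulators of ligand latency and the inhibitors of the pathway had 0 called probes over the 18 libraries, the activin and BMP branch had 3 and the target genes 2, against 1.74% of all probes. The list of latency and activation (latent TGF-beta binding proteins, integrins, coreceptors) had 12 probes tested and a median Log2 FC of -0.14. At an unadjusted p under 0.05 it gave 1 in limma and 1 in voom, where 0 passed adjustment. Inhibitors and feedback genes, such as SMURF1, SMURF2, SKIL and PMEPA1, also had 12 probes tested, with a median of 0.41. They gave 2 and 3 probes at an unadjusted p under 0.05 in limma and voom, with 0 after adjustment in both. Over all 10475 probes of that fit, limma gave 1660 at an unadjusted p under 0.05. The median over the 12 probes of the activin and BMP branch was 0.07, and over the 28 probes of the target genes it was 0.19, beside 0.02 over all probes. By the limits of the study within a line, the target genes had 5 of 28 probes called in BT549, then 1 of 27 for Hs578T and 8 of 22 for SUM149PT, where 6.97%, 2.78% and 9.56% of all probes were called. The SUM149PT count was 3 in a fit with the replicate block, for which the share of all probes is not printed here. The activin and BMP branch had 3 of 11, 1 of 13 and 3 of 12, the inhibitors 1 of 11, 1 of 12 and 2 of 12, and the latency list 1 of 8, 0 of 12 and 2 of 9 in the same order.

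Within the activin and BMP branch, BMP2 and INHBA rose and ACVR1 fell. BMP2, a BMP ligand, averaged 0 with siCtrl and 5.18 with siASAP1 in BT549, 22.8 and 36.8 in Hs578T, and 101 and 313 in SUM149PT (common Log2 FC 1.70, SE 0.35, adjusted p = 0.0159, limma). INHBA, which encodes a subunit of activin A, averaged 66.4 and 202 in BT549, 80.0 and 98.7 in Hs578T, and 31.0 and 281 in SUM149PT (1.74, SE 0.41, adjusted p = 0.0352). ACVR1, a type I receptor of the same family as TGFBR1, averaged 177 and 69.4, 232 and 126, and 122 and 44.7 (-1.39, SE 0.33, adjusted p = 0.0337). BMP2 kept its call in all 18 fits without 1 library and lost it with the replicate number as a block (adjusted p = 0.0902), as did INHBA and ACVR1. Its Log2 FC was 2.75 with a pseudocount of 0.1. INHBA lost it in 10 (Log2 FC from 1.48 to 1.90 over the 18, adjusted p up to 0.0799), namely without BT549 siCtrl 1 or 3, BT549 siASAP1 2 or 3, Hs578T siASAP1 3, SUM149PT siCtrl 1 or 3, or any SUM149PT siASAP1 library. ACVR1 lost it in 11 (-1.53 to -1.19, adjusted p up to 0.0764), namely without BT549 siCtrl 1 or 3, BT549 siASAP1 2 or 3, Hs578T siCtrl 2, Hs578T siASAP1 3, any SUM149PT siCtrl library, or SUM149PT siASAP1 2 or 3.

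Of the target genes, LOX fell and 1 probe of FN1 rose. LOX, a collagen cross-linking enzyme, averaged 21779 with siCtrl and 12032 with siASAP1 in BT549, 1899.8 and 979 in Hs578T, and 810.5 and 294 in SUM149PT. Its common Log2 FC was -1.07 (SE 0.21, adjusted p = 0.0106, limma) and passed in all 18 fits without 1 library. The probe FN1_27231, for the matrix protein fibronectin, averaged 6643 and 9388, 18667 and 23009, and 854 and 4387 in the same order (1.04, SE 0.26, adjusted p = 0.0477). That call was lost in 15 of the 18 such fits (0.90 to 1.15, adjusted p up to 0.0986), all but those without BT549 siASAP1 1, Hs578T siCtrl 2 or Hs578T siASAP1 3.

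**Figure D4:**
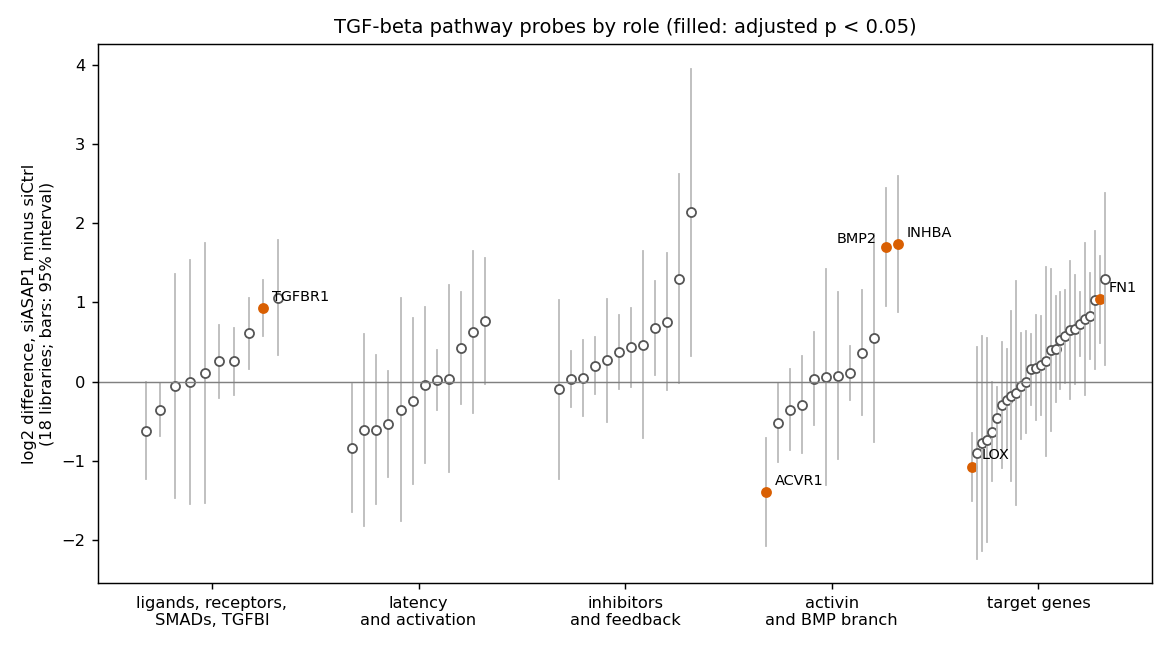
Common Log2 FC over the 18 libraries (vertical axis) for every tested probe of the 10 genes and of 4 pathway lists (horizontal axis, sorted within a list). Bars are 95% intervals from limma and filled symbols have an adjusted p under 0.05. TGFBR1, BMP2, INHBA and FN1 are the filled symbols above 0, and ACVR1 and LOX those below it.

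The target list also held the single probe, of 10475 tested, that passed the interaction test over the 3 lines together. The probe SNAI2_24257, for an EMT transcription factor, was named after its values were seen. It averaged 1673 with siCtrl and 563 with siASAP1 in BT549, 5246 and 4950 in Hs578T, and 86.4 and 239 in SUM149PT (interaction adjusted p = 0.00647, limma). The call held in each of the 18 fits without 1 library (adjusted p up to 0.0466) and was lost with the replicate number as a block (adjusted p = 0.713).

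Between the siCtrl cultures of the 3 lines, most target genes called were lower in SUM149PT than in the other lines. The 28 target probes tested cover 21 genes, and SPARC and FN1 are also among the mesenchymal genes counted above. Of these probes, 14 were lower and 1 higher in SUM149PT than in BT549, and 17 lower and 2 higher than in Hs578T. Over all probes 8.8% and 9.4% were lower and higher in the first comparison, and 10.6% and 9.68% in the second. Medians of the target probes were -2.28 and -2.43, beside -0.04 and -0.00 over all probes. With probes at 0 set to the bound that 3 reads per library allow, they were -1.81 and -1.92. The collagen gene COL1A2 averaged 11477 in BT549, 30836 in Hs578T and 3.14 in SUM149PT. SPARC_6699, for a matrix glycoprotein, was at least 194-fold and 243-fold higher in BT549 and Hs578T than in SUM149PT. Hs578T exceeded BT549 in 9 of the 28 target probes, among them COL1A1 (log2 difference 4.98), and was lower in 2, among them LOX (-3.58). Over all probes 7.58% were higher and 6.28% lower in that comparison, so that 2 of 28 is near the background.

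The upstream regulators also differed by line. In the latency list 5 of 12 probes were higher and 1 lower in Hs578T than in BT549, 1 higher and 2 lower in SUM149PT than in BT549, and 1 higher and 5 lower in SUM149PT than in Hs578T. Over all probes the shares higher and lower were 7.58% and 6.28%, 9.4% and 8.8%, and 9.68% and 10.6% in that order, so that 1 of 12 is near the background. ITGB8, a subunit of an integrin that activates latent TGF-beta, averaged 5.24 in BT549, 307 in Hs578T and 502 in SUM149PT, and LTBP1, which tethers the latent complex to the matrix, averaged 329, 4506 and 136. DCN_27098, for the ligand-binding proteoglycan decorin, was at least 116-fold higher in Hs578T than in SUM149PT. In the inhibitor list 2 probes were higher and 1 lower in Hs578T than in BT549, 3 and 1 in SUM149PT than in BT549, and 2 and 1 in SUM149PT than in Hs578T (3 and 2 without SUM149PT siCtrl library 2), of 12 probes. PMEPA1, a feedback inhibitor that sequesters SMADs, averaged 33.5, 135 and 792 in BT549, Hs578T and SUM149PT (SUM149PT minus BT549 4.42, SE 0.56, adjusted p = 0.000336, limma). In the activin and BMP branch the counts of 12 probes were 2 and 1, 3 and 3, and 2 and 1 (2 and 3 without that library), and BMP2 was at least 8.84-fold and 39.2-fold higher in Hs578T and SUM149PT than in BT549. The shares of all probes called between lines without that library are not printed here. The counts without it are thus no result about these lists.

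The probes whose log2 values ran most like TGFBR1 over the 18 libraries were FAM134C (r = 0.957), CELSR1 (r = 0.941) and LAMA3 (r = 0.939). For TGFBI they were NDUFB3 (r = 0.935), NDUFA3 (r = 0.931) and RPL37 (r = 0.926). These are descriptions over libraries that share cell line, treatment and depth, and they were picked as the highest of all tested probes.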

How the data were processed

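Members and gene lists were chosen with earlier results of these data known, and no list is independent evidence. The authors counted reads per probe, divided them by DESeq2 size factors, added 1 and deposited log2 values. The submitters' processing notes name bcl2fastq, Bowtie and DESeq2, and versions and genome build are not given in the sources used here. Replicates were not pooled. The labels gave the group and replicate number of all 18 libraries. Whole reads could be recovered for 100% of values (tolerance 0.02) and served the voom alternative.

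The study used a Wald test on counts. As the deposited values are log2, limma 3.58.1 (R 4.3.3; lmFit, eBayes with trend) was fitted to all probes that averaged 10 or more normalized counts over the fitted libraries. Fits covered each cell line (6 libraries), the 18 libraries with cell line as covariate, the interaction, and the 9 siCtrl libraries. P-values were adjusted over all probes (Benjamini-Hochberg), and calls within a line used the study's limits. Simulated reads with a fixed spread and planted changes larger than the siASAP1 differences reported here were also run through the fits. That run does not show how the fits perform on differences of the reported size. Values after ± are SDs between libraries. SEs, intervals and p-values of limma use a variance of each probe that is drawn toward a trend over all probes.

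Named genes were ASAP1, all members, up to 4 genes per list called over the 18 libraries or meeting the limits in 2 lines, up to 3 per list and pair of lines with the largest called difference (examples are printed), and the 3 probes most like TGFBR1 and TGFBI. 1 gene that this rule names is not reported here. Lists were latency and activation, inhibitors and feedback, activin and BMP branch, target genes and cell type markers. Alternatives were scaling by library totals, no minimum, a minimum of 50, a pseudocount of 0.1, voom weights, the replicate number as a block, a single fit of all libraries, siASAP1 in place of siCtrl libraries, and each library left out. Promoters were RefSeq (GRCh38.p14) and gene spans GENCODE (GRCh38). All 10 genes matched. Plots used Python 3.11.15 and matplotlib 3.10.9.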

Additional observations from a re-analysis of the deposited data

How the results depend on the processing

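Over the 18 libraries TGFBR1 passed the adjusted test in all 6 other settings (Log2 FC 0.92 to 1.06, adjusted p 0.00528 to 0.0496 in limma), and no member passed the interaction test in any. Calls by the limits of the study within a line were less stable. The 1 BT549 call (SMAD7) became 0 with voom and with the replicate block, and ranged from 0 to 2 with 1 library left out. It also became 0 with a minimum of 50, which SMAD7 did not reach in BT549, so that it was not tested there. The 1 call in Hs578T (TGFBR1) ranged from 0 to 2 and that in SUM149PT from 1 to 2 in such fits, the 2 in SUM149PT coming without siCtrl library 2. A single fit of all 18 libraries called 2 in SUM149PT, TGFBI being added. Other than for the fit without SUM149PT siCtrl library 2, the shares of all probes called in these settings are not printed here.

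The replicate numbers were not taken to pair the libraries, since the labels do not say what a number shares and not every pair correlated above 0.1. Correlations of deviations between same-numbered libraries were -0.19, -0.39 and 0.14 in BT549, 0.0998, 0.42 and 0.41 in Hs578T (each best with its own number, a hint from the data and not from the design) and -0.33, -0.66 and -0.35 in SUM149PT. With the replicate block SUM149PT had 0 member calls, while the common TGFBR1 call was kept at an adjusted p of 0.0496 in limma, BMP2, INHBA, ACVR1 and FN1 lost theirs and SNAI2 its interaction call. In Hs578T the block gave ASAP1 an adjusted p of 0.0483, and TGFBR2, at the same Log2 FC of 0.72, one of 0.151 against 0.923 without it.

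For cell line levels, the 2 calls of Hs578T against BT549 became 1 with voom, 7 with all 18 libraries and 1 to 3 with 1 library left out. With siASAP1 libraries both were lost and TGFB1 and TGFBI were called instead (adjusted p = 0.0305 and 0.00679, limma). The 1 call of SUM149PT against BT549 became 2 with siASAP1 libraries, 2 with all 18 and 1 to 2 in leave-outs, and the 3 against Hs578T became 5 and 6. The share of all probes called in each of these settings is not printed here, so the counts are no result about the members. For TGFBR2, SUM149PT minus Hs578T was 0.26 with siCtrl libraries, which did not pass (adjusted p = 0.68, limma). With siASAP1 libraries it was -0.97 (SE 0.27, adjusted p = 0.0228, limma). The change between the 2 is the interaction of -1.23, which did not pass (adjusted p = 0.7, limma). Scaling by library totals moved the median of all probes from 0.01 to 0.12 in Hs578T, 0.09 to 0.29 in SUM149PT and 0.02 to 0.14 over the 18 libraries, without changing how many members were called. It ended the ACVR1 call. INHBA and ACVR1 also lost theirs without a minimum, and FN1 without a minimum, with voom and with a pseudocount of 0.1. The cause of these changes was not tested. Few reads limited what TGFB1, TGFB3, SMAD2, SMAD4 and TGFB2 probe 7058 could show. TGFB2 probe 7058 had 0 reads in 13 libraries, while probe 25683 of the same gene had 146 to 3061 reads over the 18 libraries. Whether depth or the probe itself set the low counts was not tested.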
